A study of Mus musculus with 12 samples.

Results

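The collagen genes of the mouse were followed across ovaries of FVB/N females at 14 dpn that differed in Foxo3 genotype and in a transgene. Members were chosen by name and by detection: a probe whose annotated symbol is a collagen chain, with a signal above the negative control beads (detection p under 0.05) on at least 3 of 12 Illumina bead arrays. Of 91 collagen probes for 41 genes on the array, 55 probes for 34 genes passed, among 22511 probes that passed on the whole array. They comprise 10 fibrillar genes, 6 basement membrane genes and 18 genes of other classes. A further 7 genes, Col5a3, Col6a6, Col9a1, Col10a1, Col13a1, Col19a1 and Col28a1, had no probe past that threshold, and Col6a3, Col12a1, Col20a1 and Col21a1 were not named in the annotation used.

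The 4 groups of 3 arrays cross a transgene with the genotype of Foxo3, a forkhead transcription factor that acts in the oocyte to keep primordial follicles resting. They are NoTg Foxo3+/- (no transgene, heterozygous), NoTg Foxo3-/- (no transgene, null), Tg Foxo3+/- (transgene, heterozygous) and Tg Foxo3-/- (transgene, null). The series title names the transgene as constitutively active Foxo3 in oocytes, and the sources used here do not give its promoter. Every heterozygous control lacks 1 Foxo3 copy, and no group is wild type. The 1 tested Foxo3 probe read 7.81, 7.92 and 8.44 in NoTg Foxo3+/-, 8.45, 8.18 and 8.65 in NoTg Foxo3-/-, 7.89, 7.87 and 8.13 in Tg Foxo3+/-, and 8.29, 8.37 and 8.21 in Tg Foxo3-/- ovaries. Its mean was thus not lower in null ovaries, where it differed by 0.37 without and 0.33 with the transgene (limma adjusted p = 0.317 and 0.348), nor higher with the transgene (-0.09 and -0.14). The sources used here do not place that probe within or outside the deletion, so it checks neither the genotype nor the transgene labels. All 6 listed oocyte markers and 5 of 6 granulosa markers were detected, as the tissue label requires. The remaining granulosa marker, Inhbb, was not named in the annotation used. The RNA is that of whole ovary, so fewer cells of a type and less collagen RNA per cell cannot be told apart in any value below.

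Collagens are built from chains that wind around each other into a triple helix. Fibrillar collagens such as types I and III form the fibres of the ovarian stroma and of the theca around growing follicles. Type IV chains form the sheet-like network of basement membranes, including the one that separates granulosa cells from the theca. Other classes decorate fibrils, form beaded filaments or fine networks, or stay anchored in the cell membrane.

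Promoter windows of some collagen genes are shown first, as sequence background. Binding of Foxo3 to them, and any link to the differences below, was not tested. RefSeq windows on GRCm38.p6, from 250 bases before to 50 bases after the annotated start, were matched for 26 of the 34 genes; Col1a1, Col2a1, Col4a3, Col5a2, Col9a3, Col14a1, Col22a1 and Col26a1 were not matched. The windows below belong to genes called in a comparison, to Col4a1 as the main basement membrane chain, and to Col6a1, which has the forkhead letters. Capitals mark GTAAACA (forkhead), CCAAT and TATAAA, searched on both strands, and a match on the other strand is printed as its reverse complement.
Col3a1, chr1:45311288-45311587, plus strand: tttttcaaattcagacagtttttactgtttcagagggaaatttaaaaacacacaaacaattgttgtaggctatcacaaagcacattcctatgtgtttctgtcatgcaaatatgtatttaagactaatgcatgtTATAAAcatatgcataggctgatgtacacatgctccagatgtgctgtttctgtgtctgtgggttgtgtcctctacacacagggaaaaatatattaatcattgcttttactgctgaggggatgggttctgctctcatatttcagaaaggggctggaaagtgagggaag
Col24a1, chr3:145292222-145292521, plus strand: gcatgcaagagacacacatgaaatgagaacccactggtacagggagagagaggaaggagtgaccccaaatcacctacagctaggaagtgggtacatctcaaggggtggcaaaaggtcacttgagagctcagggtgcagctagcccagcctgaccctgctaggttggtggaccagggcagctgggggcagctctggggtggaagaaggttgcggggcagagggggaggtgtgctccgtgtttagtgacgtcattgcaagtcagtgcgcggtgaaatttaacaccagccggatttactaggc
Col1a2, chr6:4505368-4505667, plus strand: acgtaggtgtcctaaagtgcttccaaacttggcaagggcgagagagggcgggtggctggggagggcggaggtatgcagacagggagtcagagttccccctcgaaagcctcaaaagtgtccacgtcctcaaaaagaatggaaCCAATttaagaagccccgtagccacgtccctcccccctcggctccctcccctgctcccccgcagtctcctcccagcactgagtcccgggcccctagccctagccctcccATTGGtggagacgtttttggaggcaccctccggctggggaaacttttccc
Col4a5, chrX:141475169-141475468, plus strand: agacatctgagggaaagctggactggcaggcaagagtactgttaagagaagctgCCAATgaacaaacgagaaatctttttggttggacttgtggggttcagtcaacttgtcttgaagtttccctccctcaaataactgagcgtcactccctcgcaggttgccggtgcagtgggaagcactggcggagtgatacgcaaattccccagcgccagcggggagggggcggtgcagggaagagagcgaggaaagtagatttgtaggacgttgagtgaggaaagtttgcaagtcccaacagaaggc
Col4a1, chr8:11312777-11313076, minus strand: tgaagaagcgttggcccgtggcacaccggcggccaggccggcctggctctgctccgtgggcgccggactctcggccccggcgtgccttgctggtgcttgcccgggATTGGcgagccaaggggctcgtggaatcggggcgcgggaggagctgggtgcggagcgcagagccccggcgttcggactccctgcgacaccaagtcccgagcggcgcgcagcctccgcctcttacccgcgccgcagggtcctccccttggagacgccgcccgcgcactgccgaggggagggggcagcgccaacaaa
Col8a1, chr16:57754688-57754987, minus strand: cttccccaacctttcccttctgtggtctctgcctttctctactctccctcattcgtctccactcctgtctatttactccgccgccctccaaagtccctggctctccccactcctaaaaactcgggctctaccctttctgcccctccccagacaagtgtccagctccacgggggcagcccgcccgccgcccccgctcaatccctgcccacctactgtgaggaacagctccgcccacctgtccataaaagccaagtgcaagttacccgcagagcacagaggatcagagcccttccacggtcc
Col6a1, chr10:76725995-76726294, minus strand: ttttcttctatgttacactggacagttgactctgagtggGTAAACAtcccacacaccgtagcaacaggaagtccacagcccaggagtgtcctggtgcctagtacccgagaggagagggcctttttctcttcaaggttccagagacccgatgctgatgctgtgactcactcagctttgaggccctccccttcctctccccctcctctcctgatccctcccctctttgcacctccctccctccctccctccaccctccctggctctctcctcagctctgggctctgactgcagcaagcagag
The forkhead letters occurred in 1 of 28 collagen windows, that of Col6a1, against 3.65% of 32851 windows of all genes. CCAAT occurred in 11 of 28 collagen windows (39.3%), against 37.4% of all windows. TATAAA occurred in 3 of 28 (10.7%), Col3a1 among them, against 13.6% of all. No printed match overlaps another, and the shares in collagen windows lie close to those over all genes. Col4a1 and Col4a2 start 21 bases apart on opposite strands, so their windows overlap by 78 bases.

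Values are log2 of background-corrected, quantile-normalized intensity, one per probe and array, and a difference is null minus heterozygous or transgene minus no transgene. The brightest tested probe stands for a gene that has several. A gene is called at an adjusted p under 0.05 from limma, with the Benjamini-Hochberg correction across 22511 probes. Levels of different genes are not compared, since each probe binds with its own strength. The arrays of the groups differed in raw background, which was 76.3 to 79.8 in NoTg Foxo3+/-, 79.9 to 81.2 in NoTg Foxo3-/-, 65.4 to 67.0 in Tg Foxo3+/- and 68.5 to 74.2 in Tg Foxo3-/- ovaries. Background therefore moved with both factors. The 7 comparisons reuse the arrays, so their values are not independent of one another.

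**Figure D1:**
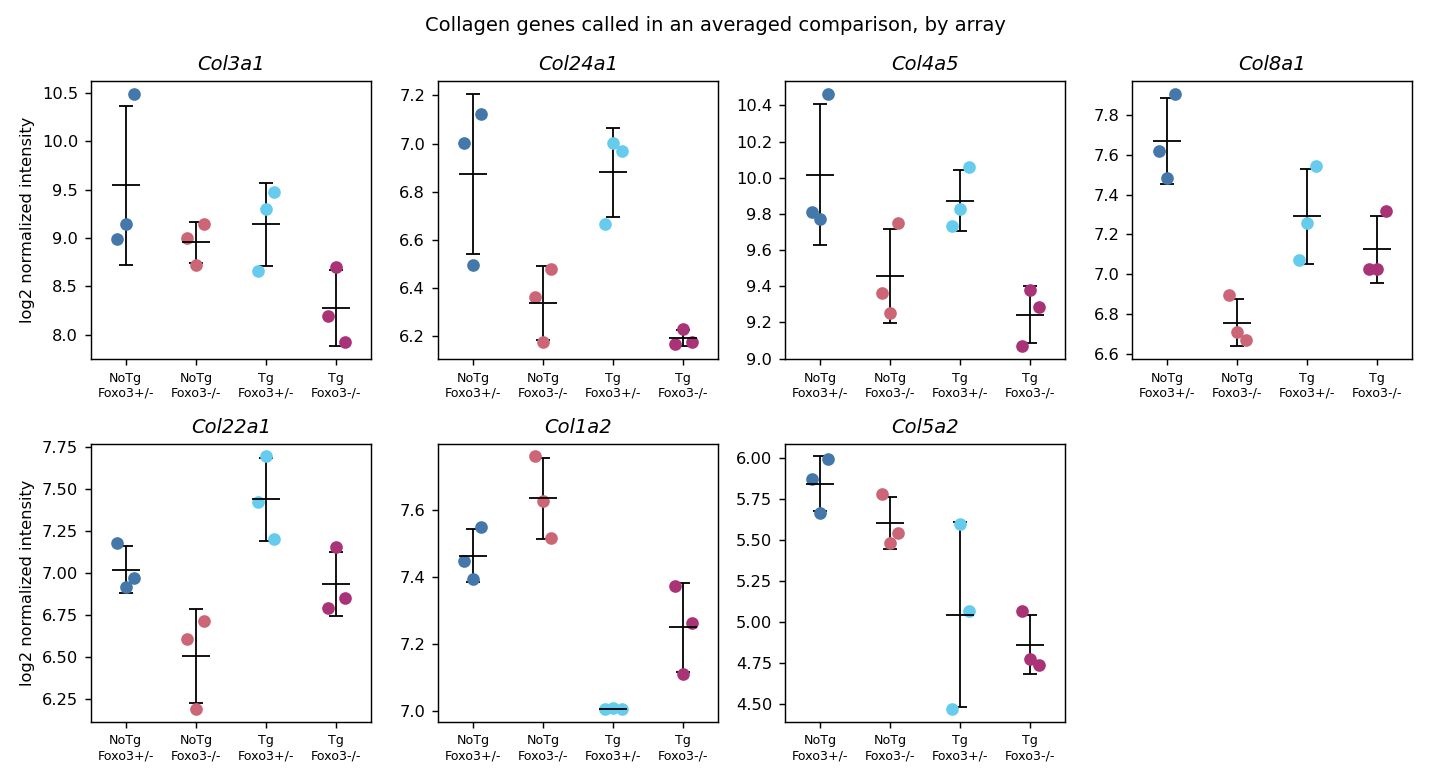
Log2 normalized intensity (y axis) of each of the 7 collagen genes called in an averaged comparison, by group (x axis); points are the 3 arrays of a group, bars the mean with 1 SD. Col24a1 shows the heterozygous arrays at 6.50 to 7.12 and the null arrays at 6.17 to 6.48, and Col1a2 shows all transgene arrays below all others.

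Averaged over the transgene, ovaries null for Foxo3 held lower RNA levels of 5 of 34 collagen genes than heterozygous ovaries, and higher levels of 0. Col24a1 fell 1.53-fold, Col4a5 1.51-fold, Col8a1 1.45-fold, Col22a1 1.42-fold and Col3a1 1.66-fold (6 arrays a side). The share of collagen genes lower was 14.7%, against 5.5% of the 12173 genes tested, of which 4.48% were higher. At an unadjusted limma p under 0.05 there were 9 of 34 collagen genes, 7 of them lower. That share was close to the 26.8% of all genes with such a p. The fallen genes came from the fibrillar, basement membrane, fibril-associated and short-chain classes, 2 of 10, 1 of 6, 1 of 5 and 1 of 2 genes. The median collagen difference was -0.11, with 25 of 34 genes below 0, where the median over all genes was -0.01 with 51.9% below 0.

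**Figure D2:**
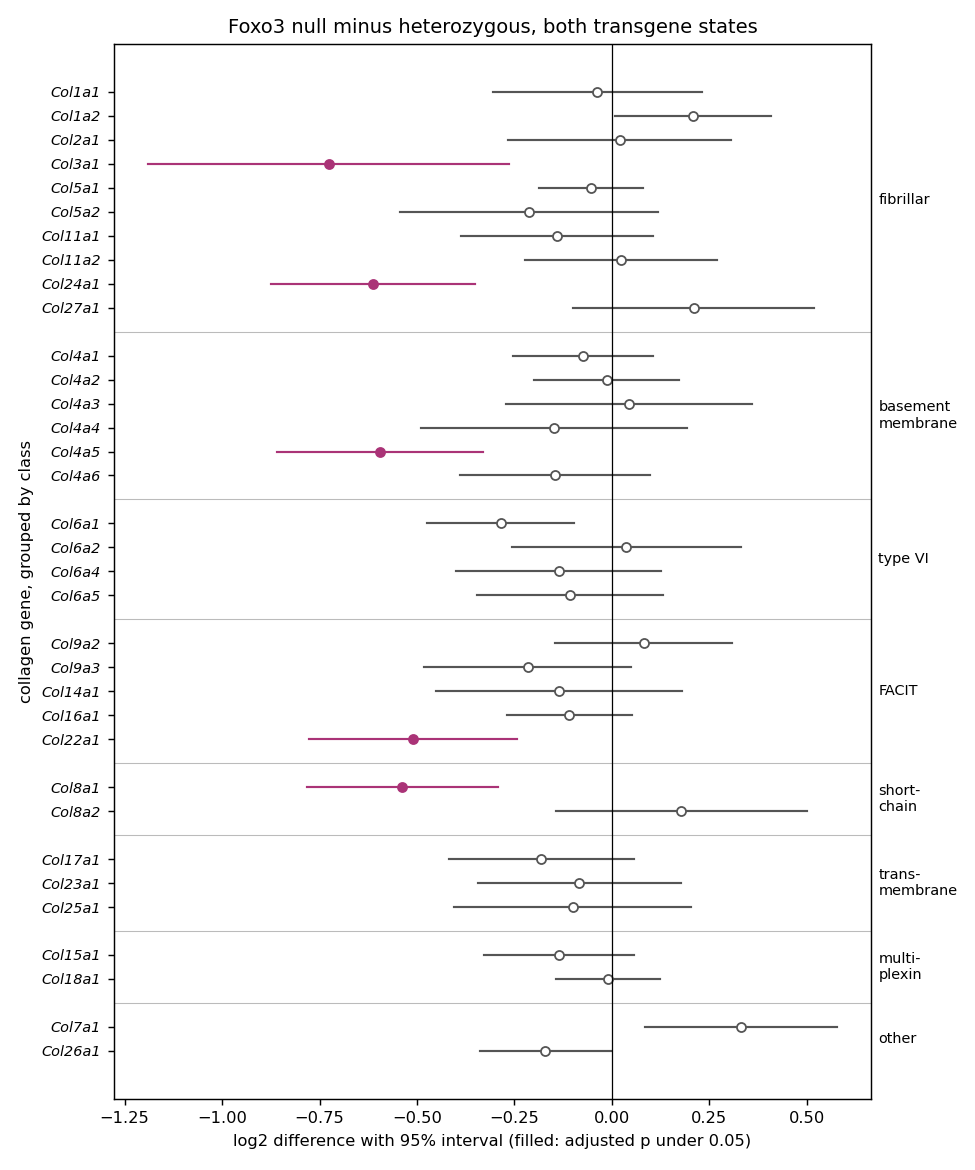
Log2 difference, null minus heterozygous Foxo3 averaged over both transgene states (x axis), with its 95% interval, for 34 collagen genes grouped by class (y axis); filled points have limma adjusted p under 0.05. The 5 filled points all lie below 0, and Col7a1 lies highest at 0.33.

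Col24a1, a fibrillar collagen, read 7.0, 6.50 and 7.12 in NoTg Foxo3+/-, 6.36, 6.18 and 6.48 in NoTg Foxo3-/-, 6.67, 7.0 and 6.97 in Tg Foxo3+/-, and 6.17, 6.23 and 6.18 in Tg Foxo3-/- ovaries. Every null array lay below every heterozygous array. This was the only collagen gene whose 6 null and 6 heterozygous arrays did not overlap, where 2.46% of all genes separated downward and 2.75% upward. The difference was -0.61 (SE 0.12, 95% interval -0.87 to -0.35, limma adjusted p = 0.0062). A second Col24a1 probe fell as well, by 0.43 (adjusted p = 0.0245), also without overlap, and the remaining, dim probe differed by -0.05.

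Col4a5, a basement membrane chain encoded on the X chromosome, read 9.81, 9.77 and 10.46 in NoTg Foxo3+/-, 9.37, 9.25 and 9.75 in NoTg Foxo3-/-, 9.73, 9.83 and 10.06 in Tg Foxo3+/-, and 9.07, 9.38 and 9.28 in Tg Foxo3-/- ovaries. Null arrays lay lower in both transgene states, with 1 null array reaching into the range of the other side. The difference was -0.59 (SE 0.12, interval -0.86 to -0.33, limma adjusted p = 0.00771). A second, dimmer Col4a5 probe overlapped between the sides and was not called, at -0.16 (SE 0.11, interval -0.38 to 0.06, adjusted p = 0.386).

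Col3a1, the type III fibrillar chain of stroma and vessel walls, read 8.99, 9.15 and 10.49 in NoTg Foxo3+/-, 9.0, 8.72 and 9.14 in NoTg Foxo3-/-, 8.66, 9.30 and 9.47 in Tg Foxo3+/-, and 8.19, 8.70 and 7.93 in Tg Foxo3-/- ovaries. Replicate 3 of NoTg Foxo3+/- stood well above all other arrays, and the sides overlapped. The difference was -0.73 (SE 0.22, interval -1.19 to -0.26, limma adjusted p = 0.0499), just past the threshold. That call was lost in 14 of 21 other settings, including without each of 8 single arrays: NoTg Foxo3+/- replicate 3, any NoTg Foxo3-/- replicate, Tg Foxo3+/- replicates 2 and 3, and Tg Foxo3-/- replicates 1 and 3. Adjusted p ran from 0.00999 to 0.66 over those settings, and a second Col3a1 probe differed by -0.38 (adjusted p = 0.214).

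Col22a1, a fibril-associated collagen, read 7.18, 6.91 and 6.97 in NoTg Foxo3+/-, 6.61, 6.19 and 6.72 in NoTg Foxo3-/-, 7.42, 7.69 and 7.20 in Tg Foxo3+/-, and 6.79, 7.15 and 6.85 in Tg Foxo3-/- ovaries. Within each transgene state the null arrays lay below the heterozygous ones without overlap. The averaged difference was -0.51 (SE 0.13, interval -0.78 to -0.24, limma adjusted p = 0.02). Leaving out Tg Foxo3+/- replicate 2, Tg Foxo3-/- replicate 1 or Tg Foxo3-/- replicate 3 ended the call (adjusted p = 0.0578, 0.0614 and 0.0534), in a range of 0.00601 to 0.261 over all settings.

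Col8a1, a short-chain collagen that forms networks around vessels and in other membranes, read 7.62, 7.48 and 7.91 in NoTg Foxo3+/-, 6.89, 6.71 and 6.67 in NoTg Foxo3-/-, 7.07, 7.26 and 7.54 in Tg Foxo3+/-, and 7.03, 7.03 and 7.32 in Tg Foxo3-/- ovaries. The gap between genotypes was wide without the transgene, and the ranges overlapped with it. Averaged, the difference was -0.54 (SE 0.12, interval -0.78 to -0.29, limma adjusted p = 0.0093). A second Col8a1 probe fell by 0.64 (adjusted p = 0.023).

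Type VI collagen forms beaded filaments that link cells to fibrils. The brightest Col6a1 probe read 12.89, 12.72 and 12.74 in NoTg Foxo3+/-, 12.29, 12.78 and 12.45 in NoTg Foxo3-/-, 12.72, 12.95 and 13.01 in Tg Foxo3+/-, and 12.44, 12.76 and 12.60 in Tg Foxo3-/- ovaries. The sides overlapped, and at -0.28 the difference missed the threshold (limma adjusted p = 0.0588). A second Col6a1 probe read 12.42, 12.29 and 12.48, then 12.02, 12.03 and 12.07, then 12.50, 12.51 and 12.42, then 12.01, 12.22 and 12.11 in the same order of groups. Its null and heterozygous arrays did not overlap, and it fell by 0.36 (SE 0.06, adjusted p = 0.00282). That call was lost with median scaling (adjusted p = 0.15) and with the array background as a covariate (0.238), and kept in 18 of 20 other settings. Counted by probe, 8 of 55 collagen probes were lower (14.5%, against 4.22% of all probes) and 0 were higher (against 4.13%). The 2 sides did not overlap for 3 collagen probes, all lower, against 1.84% of all probes.

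Unlike Col3a1, the stromal chain Col1a1 and the basement membrane chains Col4a1 and Col4a2 were not called. Col1a1, the larger chain of type I collagen, read 9.92, 10.07 and 10.10 in NoTg Foxo3+/-, 9.70, 10.35 and 9.65 in NoTg Foxo3-/-, 9.98, 9.92 and 10.08 in Tg Foxo3+/-, and 9.71, 10.41 and 10.03 in Tg Foxo3-/- ovaries. Replicate 2 was the highest array in both null groups, and the averaged difference was -0.04 (interval -0.31 to 0.23, limma adjusted p = 0.895). Col4a1 and Col4a2 are the paired chains of nearly all basement membranes. Col4a1 read 12.66, 12.54 and 12.77, then 12.46, 12.57 and 12.57, then 12.44, 12.86 and 12.95, then 12.68, 12.86 and 12.64 in the same order of groups. Col4a2 read 11.99, 12.02 and 11.64, then 11.57, 11.82 and 11.71, then 11.68, 11.96 and 12.02, then 12.10, 12.13 and 11.91. Null and heterozygous arrays overlapped for both genes, and the differences were -0.07 and -0.01 (limma adjusted p = 0.655 and 0.949). Col7a1, of anchoring fibrils, had the highest difference at 0.33 (adjusted p = 0.0906), followed by Col1a2 and Col27a1 at 0.21 each.

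These calls depend on how array background and scale are handled. With the array background as a covariate, or with median scaling in place of quantile normalization, 0 of the 5 genes were called, each at a difference below 0. Of all 22511 probes, the covariate left 64 called higher and 55 lower, and median scaling 455 and 202. The main fit called 929 and 949. Leaving out Tg Foxo3+/- replicate 2, Tg Foxo3-/- replicate 1 or Tg Foxo3-/- replicate 3 left 3 calls. Those fits called 669 and 604, 546 and 506, and 590 and 562 of all probes.

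Without the transgene, 1 collagen gene, Col8a1, was lower in null than in heterozygous ovaries, and 0 were higher. Its 3 null arrays (6.67 to 6.89) lay below its 3 heterozygous arrays (7.48 to 7.91), and the difference was -0.91 (SE 0.16, interval -1.26 to -0.56, 1.88-fold lower, limma adjusted p = 0.0179). Over all genes 0.698% were lower and 0.411% higher, and 1 of 34 is 2.94%. An unadjusted limma p under 0.05 was reached by 5 of 34 collagen genes, all 5 lower, where 16.2% of all genes had such a p. Col4a5 differed by -0.56, Col24a1 by -0.53 and Col22a1 by -0.51 (adjusted p = 0.143, 0.16 and 0.182), each with separate groups. Without NoTg Foxo3+/- replicate 3 the Col4a5 difference was -0.33 (adjusted p = 0.372). Same-numbered arrays of these 2 groups deviated together only weakly (correlation 0.172 to 0.195, within -0.179 to 0.264 over all 18 correlations). A fit of these 6 arrays with the replicate number as a block was chosen after seeing the data. It called 2 collagen genes lower: Col8a1 (limma adjusted p = 0.0284) and Col4a5 (0.0466). That fit called 164 of 22511 probes lower. In all, 4 collagen genes separated downward (11.8%, against 10.4% of all genes) and 0 upward (against 9.18%). The Col8a1 call was lost without NoTg Foxo3+/- replicate 1 (adjusted p = 0.0529) or replicate 3 (0.0689), in a range of 0.00941 to 0.15 over 23 settings.

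In transgene ovaries 0 collagen genes were called between the genotypes, while 9 had an unadjusted p under 0.05, 8 of them lower, where 18.9% of all genes had such a p and 2.59% were called. The smallest values were those of Col24a1 at -0.69 (limma adjusted p = 0.0501), Col4a5 at -0.63 (0.0734) and Col22a1 at -0.51 (0.157). Col3a1 differed by -0.87 (0.163) and Col8a1 by -0.17 (0.664). Groups separated downward for 10 collagen genes (29.4%, against 13.9% of all genes) and upward for 2 (5.88%, against 13.3%). The second Col6a1 probe was the 1 collagen probe called, at -0.36 (adjusted p = 0.0466), against 0.689% of all probes called lower. That call was kept in 5 of 21 other settings, with adjusted p from 0.0043 to 0.599. It was lost without each of 10 single arrays, the exceptions being NoTg Foxo3+/- replicate 3 and NoTg Foxo3-/- replicate 2. Without NoTg Foxo3+/- replicate 3 the count of collagen genes called was 3. That fit called 423 of all probes higher and 250 lower, against 336 and 155 with all arrays. The collagen count was 1 without NoTg Foxo3+/- replicate 2, NoTg Foxo3-/- replicate 2 or Tg Foxo3+/- replicate 1.

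The interaction asks whether the genotype difference itself changed with the transgene. It was called for 0 of 34 collagen genes and for 0 of all genes (0%). An unadjusted limma p under 0.05 was reached by 4 of 34 collagen genes, a larger share than the 4.30% of all genes. Col8a1 had the smallest p, at 0.74 (SE 0.23, interval 0.25 to 1.23, limma adjusted p = 0.994), which reflects -0.91 without and -0.17 with the transgene. Its second probe gave a smaller 0.43, from -0.86 without and -0.43 with the transgene. By p, the next genes were Col5a1, a chain that limits fibril width, at -0.32, and Col16a1, a fibril-associated chain, at -0.35, both with adjusted p = 0.994.

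**Figure D3:**
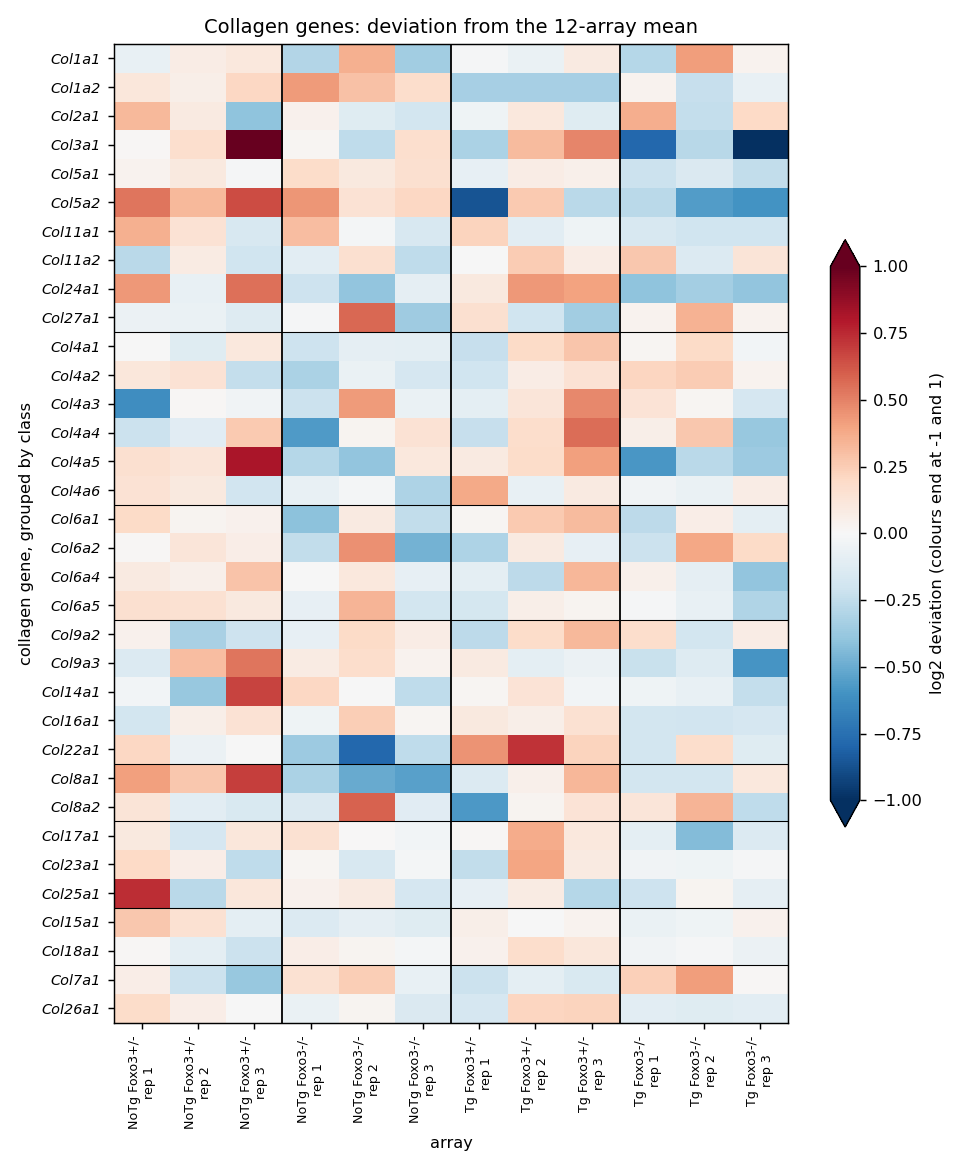
Deviation of each collagen gene (y axis, by class) from its mean over 12 arrays, on the log2 scale (colour, ending at -1 and 1), for every array (x axis, by group). Tg Foxo3-/- arrays show mostly blue cells among fibrillar genes, and Col3a1 in NoTg Foxo3+/- replicate 3 stands out in dark red.

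Across classes the arrays differed little on average. The mean deviation of the 34 genes from their own 12-array mean ran from 0.02 to 0.13 in NoTg Foxo3+/-, from -0.11 to 0.05 in NoTg Foxo3-/-, from -0.09 to 0.11 in Tg Foxo3+/- and from -0.15 to -0.03 in Tg Foxo3-/- ovaries. Fibrillar genes averaged 0.15, 0.03, -0.02 and -0.16 in those groups, with the 3 Tg Foxo3-/- arrays (-0.22 to -0.14) below all others. That low class mean was not shared by every fibrillar gene. Col3a1, Col5a1, Col5a2, Col11a1 and Col24a1 had their lowest group mean in Tg Foxo3-/- ovaries. Col1a1, Col2a1 and Col27a1 had their highest there. For Col3a1 that mean was 8.28, against 8.96 to 9.54 in the other groups. Basement membrane genes averaged 0.03, -0.12, 0.13 and -0.03, and their ranges overlapped. Spread within groups was smallest for Col5a1 (pooled SD 0.06) and largest for Col3a1 (0.52).

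Averaged over Foxo3 genotypes, transgene ovaries held lower RNA levels of 2 of 34 collagen genes and higher levels of 0. Both are fibrillar, and each was compared with 6 arrays a side. Col5a2, a type V chain that starts fibrils, fell 1.70-fold on its only tested probe, which was dim and detected on 9 of 12 arrays. Col1a2, the second chain of type I collagen, fell 1.34-fold. The share was 5.88%, against 2.69% of all genes lower and 0.0904% higher. An unadjusted limma p under 0.05 was reached by 6 of 34 collagen genes, 5 of them lower, where 13.0% of all genes had such a p. The median collagen difference was 0.00, and over all genes 0.02.

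**Figure D4:**
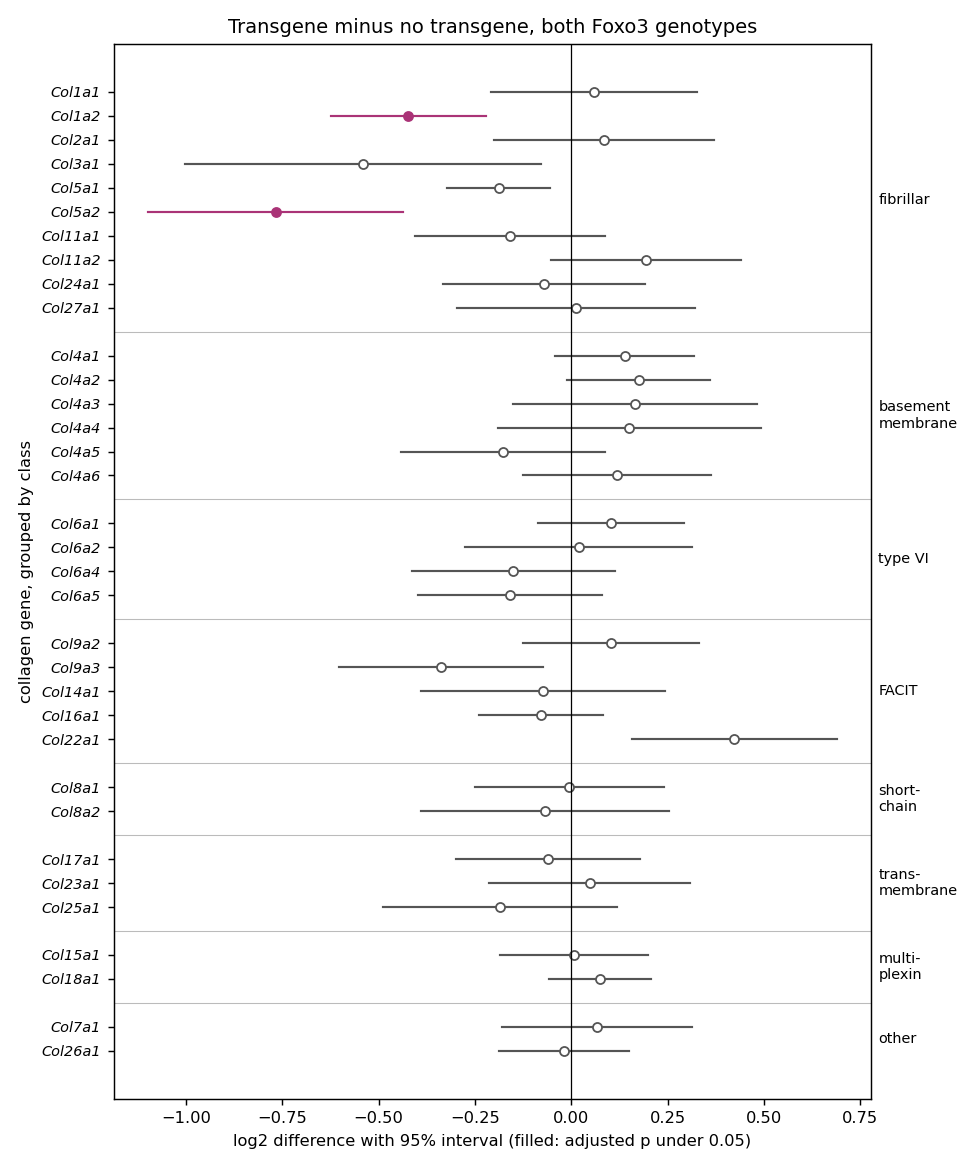
Log2 difference, transgene minus no transgene averaged over both Foxo3 genotypes (x axis), with its 95% interval, for 34 collagen genes grouped by class (y axis); filled points have limma adjusted p under 0.05. The 2 filled points, Col5a2 at -0.77 and Col1a2 at -0.42, are fibrillar.

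Col1a2 read 7.45, 7.39 and 7.55 in NoTg Foxo3+/-, 7.76, 7.63 and 7.52 in NoTg Foxo3-/-, 7.01, 7.01 and 7.0 in Tg Foxo3+/-, and 7.38, 7.11 and 7.26 in Tg Foxo3-/- ovaries. Every transgene array lay below every array without it, which 1.68% of all genes did. The difference was -0.42 (SE 0.09, interval -0.62 to -0.22, limma adjusted p = 0.0194). Leaving out NoTg Foxo3-/- replicate 1, Tg Foxo3-/- replicate 2 or Tg Foxo3-/- replicate 3 ended the call (adjusted p = 0.0663, 0.0674 and 0.0549), in a range of 0.00727 to 1 over 21 settings. Each of those arrays left 1 collagen gene called. Col1a1, its partner chain, differed by 0.06 (adjusted p = 0.903).

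Col5a2 read 5.87, 5.66 and 5.99 in NoTg Foxo3+/-, 5.78, 5.48 and 5.54 in NoTg Foxo3-/-, 4.47, 5.60 and 5.07 in Tg Foxo3+/-, and 5.07, 4.78 and 4.74 in Tg Foxo3-/- ovaries. The sides overlapped through replicate 2 of Tg Foxo3+/-. The signal was dim: it was above the negative control beads on all 6 arrays without the transgene, on 2 of 3 in Tg Foxo3+/- and on 1 of 3 in Tg Foxo3-/-. Every other Col5a2 probe was detected on 0 arrays, also without the transgene, so no second probe could check this fall. The difference was -0.77 (SE 0.16, interval -1.10 to -0.44, limma adjusted p = 0.0105). With the array background as a covariate it was -0.13 (adjusted p = 1), and that setting left 0 collagen genes called. It called 0 of all 22511 probes in this comparison, so the loss of calls was not limited to collagens. That count does not bear on the change of the Col5a2 difference from -0.77 to -0.13. The cause of that change was not tested. Background ran from 65.4 to 74.2 with the transgene and from 76.3 to 81.2 without it. Adjusted p ran from 0.00378 to 1 over 21 settings.

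Probes of 1 gene did not always give the same answer. The second-brightest Col4a4 probe, for a basement membrane chain, read 7.56, 7.66 and 8.33 in NoTg Foxo3+/-, 7.35, 7.31 and 7.69 in NoTg Foxo3-/-, 6.86, 7.34 and 7.33 in Tg Foxo3+/-, and 6.74, 6.76 and 6.51 in Tg Foxo3-/- ovaries. Transgene arrays lay lower, with a narrow overlap. It fell with the transgene by 0.73 (SE 0.14, limma adjusted p = 0.00787), whereas the other Col4a4 probes differed by 0.15 and 0.16. The call was kept in 18 of 20 other settings and lost with median scaling (adjusted p = 0.0886) and with the array background as a covariate (-0.98, adjusted p = 1). That covariate left 0 of all 22511 probes called. Counted by probe, 3 of 55 collagen probes were lower with the transgene, against 2.94% of all probes. Col3a1 differed by -0.54 on its brightest probe (adjusted p = 0.259) and by 0.12 on its second. Probes differed in sign by more than 1 SE in some comparison for Col4a5, Col17a1, Col25a1 and Col27a1, among 16 genes with several probes.

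**Figure D5:**
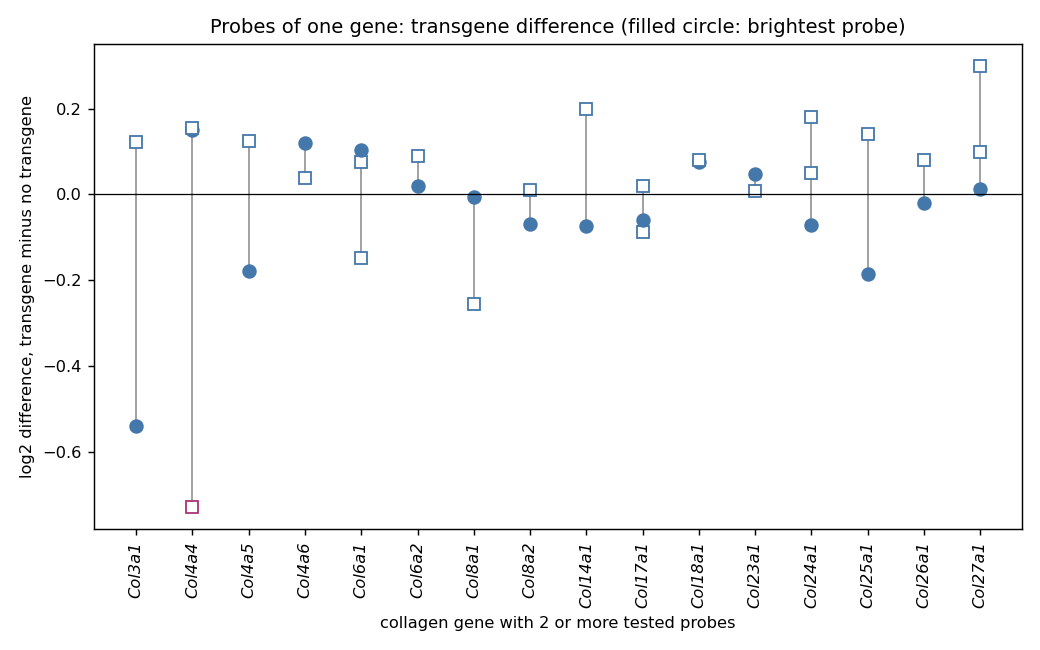
Log2 difference, transgene minus no transgene averaged over Foxo3 genotypes (y axis), for each probe of the 16 collagen genes with 2 or more tested probes (x axis); filled circles are the brightest probe, squares the others, and a red square a called one. The Col4a4 probe at -0.73 lies far from the other Col4a4 probes at 0.15 and 0.16.

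In Foxo3+/- ovaries alone, 0 collagen genes were called for the transgene, with 5 at an unadjusted p under 0.05, 3 of them lower, where 9.04% of all genes had such a p and 0.304% were called. Col5a2 differed by -0.80, Col1a2 by -0.46 and Col18a1, a multiplexin that yields endostatin, by 0.21 (limma adjusted p = 0.142, 0.169 and 0.432). Without Tg Foxo3+/- replicate 1 the Col5a2 difference was -0.51 (adjusted p = 0.384). Groups separated downward for 3 collagen genes (8.82%, against 7.52% of all) and upward for 2 (5.88%, against 6.44%).

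In Foxo3-/- ovaries alone, 0 collagen genes were called, with 9 at an unadjusted p under 0.05, 6 of them lower, where 10.6% of all genes had such a p and 0.164% were called. Col5a1 read 11.90, 11.82 and 11.88 without the transgene and 11.51, 11.57 and 11.48 with it, a difference of -0.35 with no overlap (limma adjusted p = 0.11). Col5a2 differed by -0.74 (0.178) and Col1a2 by -0.39 (0.274), while Col4a2 differed by 0.35 (0.284). Groups separated downward for 8 collagen genes (23.5%, against 8.57% of all) and upward for 5 (14.7%, against 9.15%). Col4a2 and Col22a1 were among those that separated upward.

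Genes that fold, cross-link, bind, degrade or sense collagen were read from 6 lists, beside 5.5% of all genes lower and 4.48% higher in null ovaries. In null against heterozygous ovaries, averaged over the transgene, 3 of 7 measured genes for collagen-binding proteoglycans and Sparc fell and 0 rose. Dcn fell by 0.43, Lum by 0.51 and Ogn by 0.50 (limma adjusted p = 0.0014, 0.00914 and 0.00158). Decorin and lumican bind fibrils and limit their width. Among 18 folding genes, P3h3, a prolyl 3-hydroxylase family member, fell by 0.48, a share (5.56%) at that over all genes. Among 5 procollagen processing and cross-linking genes, Loxl1, a lysyl oxidase, fell by 0.38. Of 12 breakdown genes, Ctsk, a collagen-degrading protease, fell by 0.30 and Timp2, an inhibitor of metalloproteinases, by 0.35. Basement membrane partners (0 of 12) and collagen receptors (0 of 7) had no call in that comparison. Dcn fell in each transgene state alone, by 0.43 in both (adjusted p = 0.0486 and 0.0331). For the transgene, averaged, Lamb1, a laminin chain, fell by 0.71 (adjusted p = 0.0251) and was the 1 gene called in the 6 lists. In that comparison 2.69% of all genes were lower and 0.0904% higher.

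Some markers of ovarian cell types were called between the genotypes, averaged over the transgene, where 5.5% of all genes were lower and 4.48% higher. Of 5 measured stromal and theca markers, Pdgfra fell by 0.52 and Cyp11a1 by 0.70 (limma adjusted p = 0.00652 and 0.0287). Of 4 smooth muscle markers, Des fell by 0.84 (0.0183). Of 5 surface epithelium markers, Krt8 fell by 0.37 and Krt18 by 0.60 (0.0223 and 0.0105). Of 6 oocyte markers, Zp1, Zp3 and Gdf9 rose by 0.69, 0.71 and 0.33 (3.41e-05, 7.14e-06 and 0.00757). Endothelial (0 of 6), granulosa (0 of 5), macrophage (0 of 4), erythrocyte (0 of 3) and adipocyte (0 of 1) markers had no call. With the transgene, averaged, Cyp11a1 rose by 0.85 (limma adjusted p = 0.0166) and no other marker of these lists was called. Over all genes 0.0904% were higher and 2.69% lower with the transgene. The mean deviation of the stromal list ran from -0.17 to 0.23, -0.41 to 0.00, -0.01 to 0.73 and -0.33 to 0.45 in the order of groups above. That of the surface epithelium list ran from 0.05 to 0.31, -0.30 to -0.18, 0.08 to 0.35 and -0.26 to 0.11. That of the smooth muscle list ran from 0.12 to 0.41, -0.39 to -0.07, -0.46 to 0.56 and -0.20 to 0.09, and that of the oocyte list from -0.19 to -0.03, 0.05 to 0.29, -0.29 to -0.20 and 0.11 to 0.16. The oocyte list thus lay higher on every null array than on every heterozygous array. The part of these cell types in the lower collagen levels was not tested.

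Near the detection threshold, the Col27a1 probe just inside was detected on 3 arrays, and Col11a1 and both Col25a1 probes on 4. Probes of Col4a6, Col11a1, Col25a1 and Col28a1 lay just outside, on 2 arrays each. Detection on all 12 arrays held for 39 of the 55 member probes.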

How the data were processed

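Total RNA of whole ovaries was measured on 12 arrays, 3 in each of 4 groups taken from the sample labels. The deposited table gives raw intensity per probe and array and, per the file headers, a detection p-value. The authors' normalized intensity table served only as an alternative, after log2, since the sources used here do not give its method. Background was corrected in limma 3.58.1 (R 4.3.3) from the detection p-values, with an offset of 16, before quantile normalization and log2. Those log2 values were computed here from the deposited raw intensity. Probes with a detection p under 0.05 on at least 3 arrays were fitted in one model with a mean per group (lmFit, eBayes with trend). Benjamini-Hochberg adjustment ran over all 22511 probes, two-sided, and the fit was tested on simulated data.

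Symbols came from the array's annotation table: of 45281 probes, 34885 have 1 symbol, 18 several and 10378 none here. Named collagens are the main chains, all genes called, the 3 smallest p-values per comparison and probes near the detection threshold; further values are given as context. The members, lists and tests were chosen with earlier results of these data known. Arrays had 20072 to 22015 probes detected, and their number limits the precision. Separate animals are not stated in the labels; p-values therefore reflect only how these samples vary, and part of that may be technical. Whether replicate numbers pair the samples was checked from the correlation of same-numbered samples' deviations from their group means. Between NoTg Foxo3+/- and NoTg Foxo3-/- it was over 0.1 at each number (0.175, 0.195 and 0.172), so a fit of those arrays with the number as a block was added after seeing the data. No other 2 groups met that rule (range over all 18 correlations -0.179 to 0.264). Alternatives were background correction, scaling, the authors' values, filters, array weights, a block on the replicate number, a fit of only the groups compared, the mean of a gene's probes, the array background as a covariate, and each array left out.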

Additional observations from a re-analysis of the deposited data

How the results depend on the processing

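Single genes were followed under other settings where they were called or had 1 of the 3 smallest p-values of a comparison. Of those 498 values, 0 changed direction, 37 lost a call and 15 gained one. The 0 was partly fixed in advance. Filters, the replicate block over all arrays and leaving out an array of a group not compared do not alter a difference. It does not speak for the other collagen genes. The number of calls over the whole array also moved with the setting, so brackets give all probes called higher and lower, of 22511. The count of collagen genes called in null against heterozygous ovaries, averaged, was 5 (929 and 949). It was 0 with median scaling (455 and 202), 0 with array background as a covariate (64 and 55) and 9 with array weights (1651 and 1753). It was 3 to 7 with each array left out. Without the transgene the count was 1 (90 and 115). It was 0 with median scaling (52 and 10), the authors' values (169 and 19), the background covariate (6 and 10) or only the compared groups (17 and 30). With only the compared groups and the replicate block, chosen after seeing the data, it was 2 (106 and 164). It was 0 to 1 with arrays left out. With the transgene the count was 0 (336 and 155). It was 1 with a stricter filter (357 and 166 of 18394 probes) and 8 with array weights (1387 and 1311). It was 2 with only the compared groups (468 and 306), and 0 to 3 with arrays left out. With the replicate number as a block over all 12 arrays it was 1, and no other count moved past 1.5 times under that block. For the transgene, averaged, the count was 2 (25 and 662). It was 1 with median scaling (3 and 189), 4 with the authors' values (3 and 1638) and 4 with array weights (351 and 1193). It was 0 with the background covariate (0 and 0), and 1 to 2 with arrays left out. In Foxo3-/- ovaries it was 0 (2 and 41), and 2 with array weights (47 and 465). The median collagen difference without the transgene was -0.12; it was -0.053 without NoTg Foxo3-/- replicate 3 and -0.18 without NoTg Foxo3-/- replicate 2, the range with arrays left out, and 0.016 with median scaling and 0.007 with the authors' values, where median scaling moved the median of all probes to 0.14. With the transgene it was -0.066 without background correction, and averaged it was -0.028 with the authors' values. For the transgene it was 0.115 in Foxo3+/- ovaries with median scaling (all probes 0.13), and in Foxo3-/- ovaries -0.159 with median scaling and -0.151 with the authors' values (all probes -0.10). For the interaction it was -0.218 with median scaling (all probes -0.23) and -0.088 with the authors' values, and -0.081 to 0.039 with arrays left out. The cause of these shifts was not tested. Signal limits Col5a2, detected on 9 of 12 arrays, and 3 arrays a group limit the simple comparisons.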
